A study of Mus musculus with 6 samples.

Results

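Vesicle and membrane trafficking genes were examined in the maxillary arch mesenchyme of mouse embryos at embryonic day 10.5, the tissue from which the upper jaw and palate form. They were 8 genes, of 842 named in the table: the Rab GTPase genes Rab6, Rab6b and Rab38, the exocyst gene Exoc6, the endosomal genes Eps15, Snx10 and Zfyve20, and the Golgi gene Sft2d2. The members were chosen by their symbol from the submitters' table of selected probe sets, which had itself been selected on these same arrays by an uncorrected p and a minimum fold, so their differences between genotypes describe the choice and are no test of it. They were represented by 11 probe sets of the 1061 in that table, 2 for Rab38, 3 for Exoc6 and 1 for each other gene, and probe sets of 1 gene are not independent of each other.

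The double-mutant group, Lhx6-/-; Lhx8-/-, comprised 3 arrays numbered 1, 2 and 4, and the wild-type group comprised 3 arrays numbered 1, 4 and 5 in the sample titles. All samples came from female embryos of a mixed CD-1, 129 and C57BL/6J background, and the double mutants were homozygous for both mutations. The labels do not say whether an array holds 1 embryo or several, or whether embryos shared a litter, so the spread between arrays may be partly technical. The tissue was the domain that normally expresses Lhx6 and Lhx8, excised by laser from frozen sections, and the cells were not sorted, so fewer cells of a type and less RNA per cell cannot be told apart. The comparison asks which genes depend on these LIM-homeodomain transcription factors.

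Trafficking moves membrane and cargo between compartments. Rab GTPases mark each compartment and recruit effectors, tethers such as the exocyst hold an arriving vesicle at its target, and SNARE proteins drive the fusion. Endosomal proteins sort internalised receptors and ligands for recycling or degradation, and these routes set how long receptors of developing mesenchyme stay at the cell surface.

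In the submitters' table, 6 of the 8 genes had all their listed probe sets lower in the double mutants (Rab6, Rab38, Eps15, Snx10, Zfyve20 and Sft2d2), Rab6b was higher, and Exoc6 had 2 probe sets lower and 1 higher. The lower side held 9 of the 11 member probe sets, where 416 probe sets, 0.922% of the 45101 on the array, were listed as lower and 645, or 1.43%, as higher. A stricter set of 3 criteria (uncorrected p under 0.05, fold above 1.5, and at least 1 group averaging above 100) was met by 6 of the 9 lower probe sets, from the 5 genes Rab6, Rab38, Exoc6, Snx10 and Sft2d2; 0.328% of all probe sets met them on the lower side. Since the table was built from this contrast, nothing is read from these shares. In the authors' deposited table the member just inside the p limit was Snx10 (p = 0.0430) and the one with the smallest fold was Rab6b (1.34); probe sets outside either limit carry no name and were not analysed here.

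Before the members, the arrays themselves need a description. Lhx8, the targeted gene that the table names, had intensities of 5177, 2711 and 3177 on double mutants 1, 2 and 4, against 8628, 8976 and 9493 on the wild-type arrays. The array labelled double mutant 1 stood apart in its control probe sets, where the Actb ratio of 3' to 5' signal was 24.8, while double mutants 2 and 4 had 1.74 and 1.85 and the wild types 1.62 to 1.73. Its Gapdh ratio was 17.8, while double mutants 2 and 4 had 1.53 and 1.6 and the wild types 1.36 to 1.45. Its 18 hybridization control probe sets averaged 2.96 times the wild-type mean, against 0.93 to 1.07 times on the other arrays. In the deposited value table, which covers the whole array, its Lhx8 intensity was 2036, against 1992 to 2241 on the wild-type arrays, and the members' differences in the submitters' table are therefore also given without it. Of the 12 mesenchyme markers looked for, the table named Msx1 alone, at 2578 to 3484 in double mutants and 4236 to 5087 in wild types. Of 5 markers of glia and Schwann cell precursors it named Foxd3, Sox10 and Erbb3, whose summed intensity was 144 to 195 in double mutants and 78.6 to 82.4 in wild types, of 5 pericyte markers Pdgfrb, at 2615 to 3045 and 1868 to 2096, and of 4 muscle precursor markers Pax7, at 8.63 to 9.5 and 6.17 to 7.84. It named none of the 8 epithelial, 6 endothelial, 6 blood and 6 neuronal markers, and none of the 8 melanocyte marker symbols. The part of these cell types in the differences below was not tested.

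Both files give linear intensities, but their scales differ. A member probe set averaged, over the wild types of the submitters' table, 2.53 to 30.8 times its value-table mean, with a median of 3.21, so values below are compared within a table and never between probe sets. A single wild-type column of the submitters' table carries a number that no sample title has, and it is called the unnumbered wild type here.

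RefSeq promoter windows, 250 bases before to 50 after an annotated start on GRCm38.p6, were matched for 7 of the 8 genes, 10 windows in all. The word TAATTA, the core of LIM-homeodomain sites, which reads the same on both strands, was in 0 of these windows and in 5.29% of all 32851 windows. CACGTG, a comparison word of equal length that also reads the same on both strands, was in 0 of them and in 7.15% of all. The shorter homeodomain core TAAT, read as ATTA on the other strand, was added after the windows were seen. It overlaps TAATTA at both ends, lay in at least 1 window of 4 genes (Eps15, Snx10, Zfyve20 and Sft2d2), and was in 58.0% of all windows. Of the 10 member windows, 5 held TAAT or ATTA. The 250 bases before 1 annotated start are printed for the 3 genes with the largest deposited folds among those matched. A reader can look for other sites there, and TAAT or ATTA is in capitals.
Snx10, chr6:51523653-51523902, plus strand: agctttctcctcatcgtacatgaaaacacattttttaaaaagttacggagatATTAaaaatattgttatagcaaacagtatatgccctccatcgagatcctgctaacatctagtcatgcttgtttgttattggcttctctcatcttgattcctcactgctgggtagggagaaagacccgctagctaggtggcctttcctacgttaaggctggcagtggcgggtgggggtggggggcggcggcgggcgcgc
Rab6 (Rab6a in RefSeq), chr7:100607336-100607585, plus strand: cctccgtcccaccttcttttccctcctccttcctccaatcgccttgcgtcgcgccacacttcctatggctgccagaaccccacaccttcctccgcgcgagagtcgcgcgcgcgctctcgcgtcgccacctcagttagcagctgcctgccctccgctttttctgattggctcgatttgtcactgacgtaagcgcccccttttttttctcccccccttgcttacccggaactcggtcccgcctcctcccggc
Sft2d2, chr1:165194439-165194688, minus strand: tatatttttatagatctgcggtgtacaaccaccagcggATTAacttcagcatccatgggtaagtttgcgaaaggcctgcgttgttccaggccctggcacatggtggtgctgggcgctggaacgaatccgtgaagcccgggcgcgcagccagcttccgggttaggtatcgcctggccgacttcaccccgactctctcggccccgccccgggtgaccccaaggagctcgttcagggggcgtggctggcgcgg
The capitals mark 1 ATTA in the Snx10 stretch, 1 in that of Sft2d2 and 0 in that of Rab6. GC content was 48.4%, 62.8% and 62% in the Snx10, Rab6 and Sft2d2 stretches. Snx10 and Sft2d2 each had more than 1 window, from different annotated starts, and the other windows are not printed. The full Snx10 windows had GC contents of 54.3%, 74.3% and 60.7%, and the printed stretch lies in the first of these.

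The 3 Rab GTPase genes did not share a direction. Rab6 encodes a GTPase of the Golgi, known for retrograde transport and for vesicles that leave the trans-Golgi network. Its probe set 1447776_x_at, which the file places on chromosome 7 between 107788437 and 107788683 (the labels name no build for these coordinates), had intensities of 168.7, 400.0 and 248.2 on double mutants 1, 2 and 4, against 497.5, 585.5 and 682.0 on the unnumbered wild type, wild type 4 and wild type 5. All 3 double mutants lay below all 3 wild types, and double mutant 2 came nearest to them. The group means were 272 ± 118 in double mutants and 588 ± 92.3 in wild types (SD, n = 3), a log2 difference of -1.19, which became -0.89 with double mutants 2 and 4 alone. The authors' deposited table gives Rab6 a fold of 2.28 with p = 0.0361. In the value table the groups overlapped, with 74.3, 233.6 and 86.8 on double mutants 1, 2 and 4, against 230.1, 251.1 and 217.5 on wild types 1, 4 and 5. There double mutant 2 lay inside the wild-type range, and the log2 difference was -0.91 ± 0.41 (SE). It was -0.63 without the array labelled double mutant 1 and -0.04 with array quality weights, which gave double mutant 2 a weight of 20. The suffix x marks a probe set some of whose probes also match other transcripts, so this signal may not come from Rab6 alone.

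Rab6b encodes a close relative of Rab6 known mainly from neurons, and its difference ran the other way. Probe set 1460617_s_at, on chromosome 9 from 103014152 to 103087159, had intensities of 39.8, 43.8 and 35.7 on double mutants 1, 2 and 4, against 28.9, 26.6 and 33.8 on the unnumbered wild type, wild type 4 and wild type 5. The gap between the groups was small, since double mutant 4 stood just above wild type 5. The log2 difference was 0.42 with all arrays and 0.42 without the array labelled double mutant 1. Its value-table intensities were 3.5, 9.6 and 1.1 in double mutants, against 5.3, 3.4 and 3.3 in wild types, and the groups overlapped. The log2 difference there was 0.03, and it was -0.13 without double mutant 2, so the value table gave Rab6b no direction. The suffix s marks probes shared between transcripts, so signal of related transcripts is not separated.

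Rab38 encodes a GTPase of melanosomes and other lysosome-related organelles, whose loss lightens coat colour in the chocolate mouse. It was the one Rab gene with 2 listed probe sets, and both were lower. Probe set 1417700_at, on chromosome 7 from 95578782 to 95640082, had intensities of 47.1, 62.9 and 86.5 on double mutants 1, 2 and 4, against 156.2, 135.0 and 156.3 on the unnumbered wild type, wild type 4 and wild type 5. The highest double mutant was well below the lowest wild type, and the log2 difference was -1.23, or -1.01 without the array labelled double mutant 1. Probe set 1439628_x_at, from 95639760 to 95639969 near the end of the same interval, had 20.3, 35.5 and 35.5 in double mutants, against 55.3, 71.6 and 74.8 in wild types, a log2 difference of -1.18, or -0.91 without that array. Here too no arrays of the 2 groups overlapped. The authors' deposited table gives Rab38 folds of 2.34 and 2.26, with p = 0.00945 and 0.0174.

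The value table showed the same side for Rab38. Probe set 1417700_at had 8.7, 14.4 and 23.1 on double mutants 1, 2 and 4, against 48.6, 44.7 and 47.8 on wild types 1, 4 and 5, and probe set 1439628_x_at had 4.7, 13.3 and 17.1, against 20.9, 26.1 and 30.7. Neither pair of groups overlapped. Their log2 differences there were -1.03 and -0.62 on the log2(value + 16) scale, which understates changes of dim probe sets, and -0.49 and -0.25 with a pseudocount of 64. Both were under the mean of 100 needed to enter the fit across all probe sets. Of the melanocyte markers Mitf, Pmel (also searched under its older symbol Si), Tyr, Tyrp1, Dct, Mlana and Kit the submitters' table named none.

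Exoc6 encodes the Sec15 subunit of the exocyst, the complex that tethers secretory vesicles to the plasma membrane, and its probe sets disagreed. Probe set 1424231_s_at had intensities of 108.5, 110.1 and 119.5 on double mutants 1, 2 and 4, against 223.5, 236.0 and 170.6 on the unnumbered wild type, wild type 4 and wild type 5. The double mutants lay close together, and all were below the lowest wild type. The means were 113 ± 5.96 in double mutants and 210 ± 34.7 in wild types (SD, n = 3), and the log2 difference was -0.89. Probe set 1424230_at, which the file aligns to the same interval on chromosome 19 from 37624881 to 37757905, had 113.3, 96.1 and 99.0 in double mutants, against 147.5, 197.4 and 136.0 in wild types, a log2 difference of -0.63. With double mutants 2 and 4 alone the differences of these probe sets were -0.86 and -0.70.

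The other Exoc6 probe set, 1446375_at, covers a short stretch inside that interval, from 37660677 to 37661345, and was higher in the double mutants. It had 25.9, 21.9 and 30.2 on double mutants 1, 2 and 4, against 18.6, 18.5 and 18.2 on the unnumbered wild type, wild type 4 and wild type 5, with almost no spread in the wild types. The log2 difference was 0.48 with all arrays and 0.48 without the array labelled double mutant 1. All 6 arrays were close to zero in the value table, with 1.2, 6.5 and 2 in double mutants, against 0.9, 0.5 and 0.4 in wild types. Neither file says whether the stretch is exonic or intronic. The lower Exoc6 probe sets were also less separated in the value table. Probe set 1424230_at had 38.2, 29.8 and 33.6 in double mutants, against 38.4, 56.7 and 42 in wild types, and probe set 1424231_s_at had 21.6, 13.2 and 12.6, against 33.4, 35.9 and 21.5. The array labelled double mutant 1 lay just below the lowest wild type for 1424230_at and just above it for 1424231_s_at.

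Snx10 had the largest fold of the members. It encodes a sorting nexin, a protein that binds the lipids of endosomal membranes, known for its part in osteoclast function and from inherited osteopetrosis. Probe set 1431055_a_at, on chromosome 6 from 51473934 to 51540267, had intensities of 81.7, 274.3 and 202.1 on double mutants 1, 2 and 4, against 526.0, 411.0 and 573.3 on the unnumbered wild type, wild type 4 and wild type 5. All 3 double mutants were below the wild types, but they differed among themselves more than the wild types did. The means were 186 ± 97.3 in double mutants and 503 ± 83.5 in wild types (SD, n = 3). The log2 difference was -1.59, and double mutants 1, 2 and 4 differed from the wild-type mean by -2.61, -0.86 and -1.30 log2 units, so double mutant 1 contributed most. Without it the difference was -1.08, or 2.12-fold, against the fold of 3.01 in the authors' deposited table. Snx10 in the value table had 25.7, 103.5 and 78.7 in double mutants, against 189.8, 129.4 and 151.7 in wild types, again without overlap, and the log2 difference was -1.14 ± 0.42 (SE), or -0.69 without that array and -0.49 with array quality weights.

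Zfyve20, named Rbsn in RefSeq, encodes a FYVE-domain effector of Rab GTPases on early endosomes that acts in fusion and recycling. Probe set 1456754_at, on chromosome 6 from 92137447 to 92140072, had intensities of 630.4, 657.5 and 590.3 on double mutants 1, 2 and 4, against 802.4, 998.9 and 737.9 on the unnumbered wild type, wild type 4 and wild type 5. The double mutants were tightly grouped and all below the lowest wild type. The means were 626 ± 33.8 in double mutants and 846 ± 136 in wild types (SD, n = 3), a log2 difference of -0.42, or -0.43 without the array labelled double mutant 1. The value table gave 198, 198.8 and 192.4 in double mutants, against 269.7, 311.3 and 221.9 in wild types, a log2 difference of -0.41 ± 0.22 (SE). The difference is small, and it had nearly the same size in both tables.

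Eps15 encodes an adaptor of clathrin-coated pits that takes part in the uptake of the epidermal growth factor receptor. Probe set 1430152_at, on chromosome 4 from 108996516 to 108998580, had intensities of 41.6, 34.8 and 37.6 on double mutants 1, 2 and 4, against 45.6, 59.3 and 54.3 on the unnumbered wild type, wild type 4 and wild type 5, a log2 difference of -0.48, or -0.54 without the array labelled double mutant 1. The double mutant labelled 1 came close to the lowest wild type. In the value table the groups overlapped, with 15.1, 15.9 and 20.5 in double mutants, against 18.5, 23.3 and 18.1 in wild types, and the log2 difference was -0.12.

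Sft2d2 encodes a small membrane protein whose yeast relative Sft2 acts with SNARE proteins in the fusion of endosome-derived vesicles with the Golgi. Probe set 1425026_at, on chromosome 1 from 167108821 to 167124537 on the minus strand, had intensities of 99.8, 158.9 and 109.7 on double mutants 1, 2 and 4, against 238.9, 242.9 and 230.6 on the unnumbered wild type, wild type 4 and wild type 5. The wild types were nearly identical and the double mutants clearly below them. The means were 123 ± 31.7 in double mutants and 237 ± 6.3 in wild types (SD, n = 3), and the log2 difference was -0.98, or -0.85 without the array labelled double mutant 1. The authors' deposited table gives Sft2d2 a fold of 1.97 with p = 0.00888. The value table gave it 26.7, 47.1 and 30.6 in double mutants, against 69.4, 64.9 and 68.2 in wild types, with no overlap and a log2 difference of -0.74, or -0.42 with a pseudocount of 64 and -0.40 with array quality weights.

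**Figure D1:**
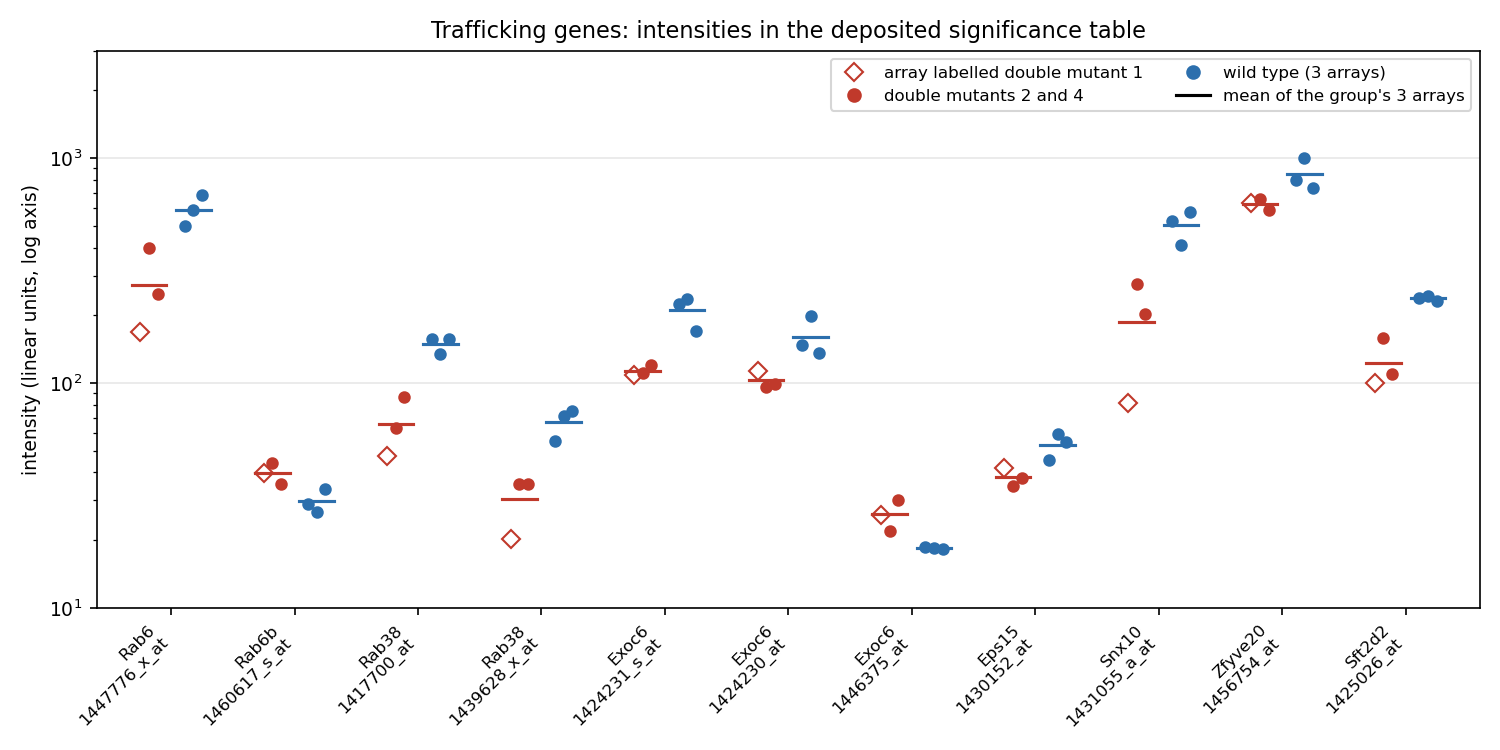
Intensity in the submitters' table (linear units on a log axis) of the 11 member probe sets, with the double mutants left and the wild types right; points are single arrays, the open diamond is the array labelled double mutant 1 and lines are means of 3 arrays. For 9 probe sets the double mutants lie below the wild types, as for Snx10 at 186 against 503, and for Rab6b and 1 Exoc6 probe set above them.

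All 11 member probe sets had groups that did not overlap in the submitters' table, as did 100% of the 1061 listed probe sets, so that separation belongs to the selection. In the value table, on the log2 scale with a pseudocount, the sign of the difference was the same for 11 of 11. For Rab6b this sign gives no direction, since the difference was 0.03, and -0.13 without double mutant 2. The share of matching signs over all 1061 listed probe sets was not computed, so nothing is read from this match. Of the 11, 6 were separated there with the double mutants lower (both of Rab38, 1424230_at of Exoc6, Snx10, Zfyve20 and Sft2d2). Only 1, the near-zero Exoc6 probe set, was separated with the double mutants higher. Over all 45037 probe sets that are no controls, 4.06% were separated on the lower and 6.72% on the higher side. The value table comes from the same samples, so this count is no independent support either. Rab6, Rab6b, Eps15 and 1424231_s_at of Exoc6 overlapped there.

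**Figure D2:**
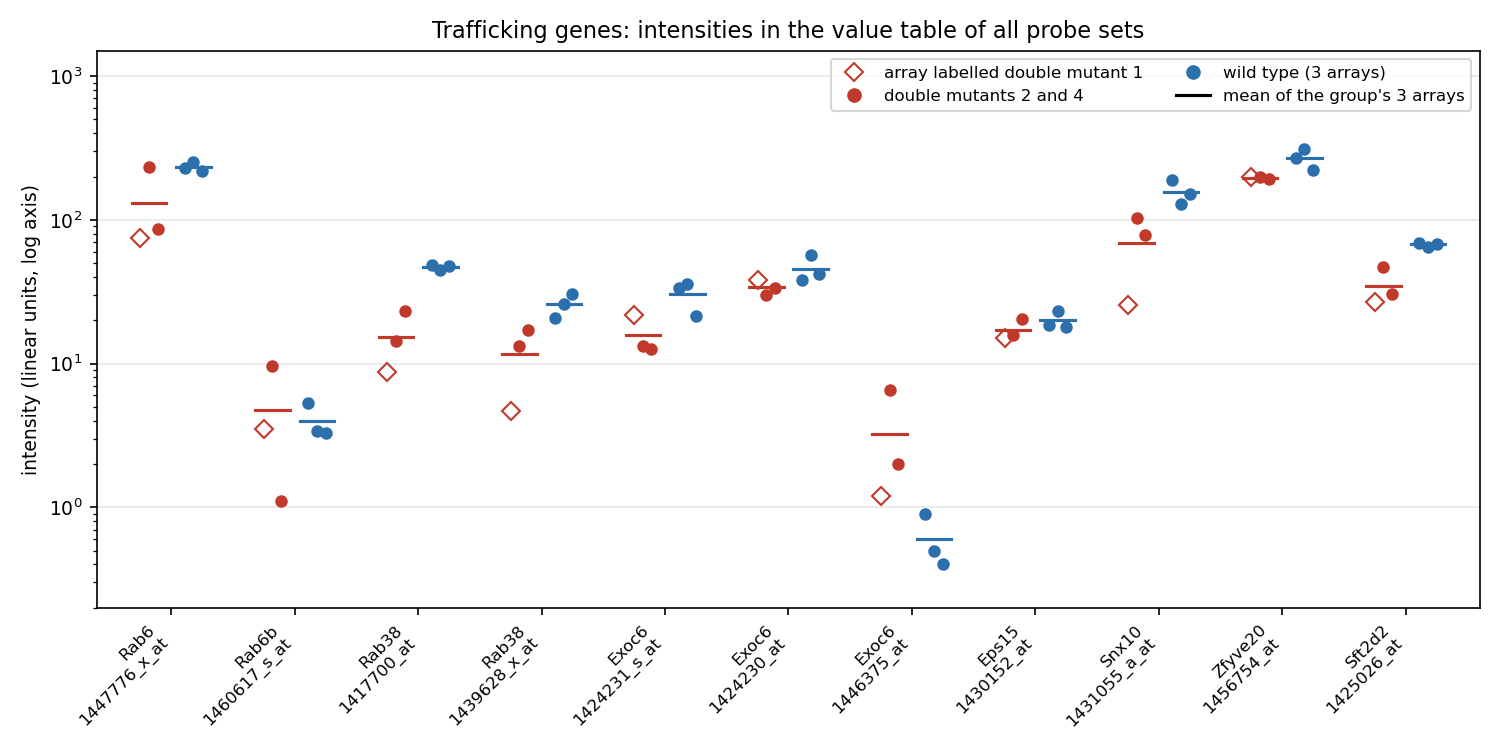
Intensity in the value table (linear units on a log axis) of the same 11 probe sets, drawn in the same way. Rab38, Snx10, Zfyve20 and Sft2d2 keep the double mutants below the wild types, whereas Rab6 has double mutant 2 at 233.6, inside the wild-type range, and Rab6b and 1446375_at of Exoc6 lie below 10 units on every array.

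The fit across the whole value table called no probe set. Of 14446 probe sets with a mean over 100 in either group, 0 (0%) passed an adjusted p of 0.05 by limma with Benjamini-Hochberg adjustment, and 245 had an unadjusted p under 0.05. Of the 11 member probe sets 3 entered this fit, those of Rab6, Snx10 and Zfyve20. The smallest adjusted p of any probe set was 0.764, and the median log2 difference of all 14446 was -0.05. This count depended on the settings. With array quality weights, which gave the array labelled double mutant 1 a weight of 0.0375, the fit called 1619, of which 894 were higher and 725 lower. With double mutants 2 and 4 alone it called 9 of 13904 probe sets, without double mutant 4 it called 2 of 14812, and with the replicate number as a block it called 2.

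The array labelled double mutant 1 gave the lowest of the 3 double-mutant values in 6 of the 9 lower member probe sets, those of Rab6, Rab38, Snx10, Sft2d2 and 1424231_s_at of Exoc6. Among all 416 listed lower probe sets it was the lowest in 238, or 57.2%, and among the 148 that met the 3 criteria in 93, or 62.8%. Leaving out each array in turn kept the sign of every member probe set in the submitters' table. The selection fixes this, since groups that do not overlap cannot change sign when an array is dropped. The widest range was that of Snx10, from -1.96 to -1.08, and the narrowest among lower probe sets was that of Eps15, from -0.58 to -0.39. The part of this array's signal in the size of the Rab6, Rab38 and Snx10 differences was not tested.

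**Figure D3:**
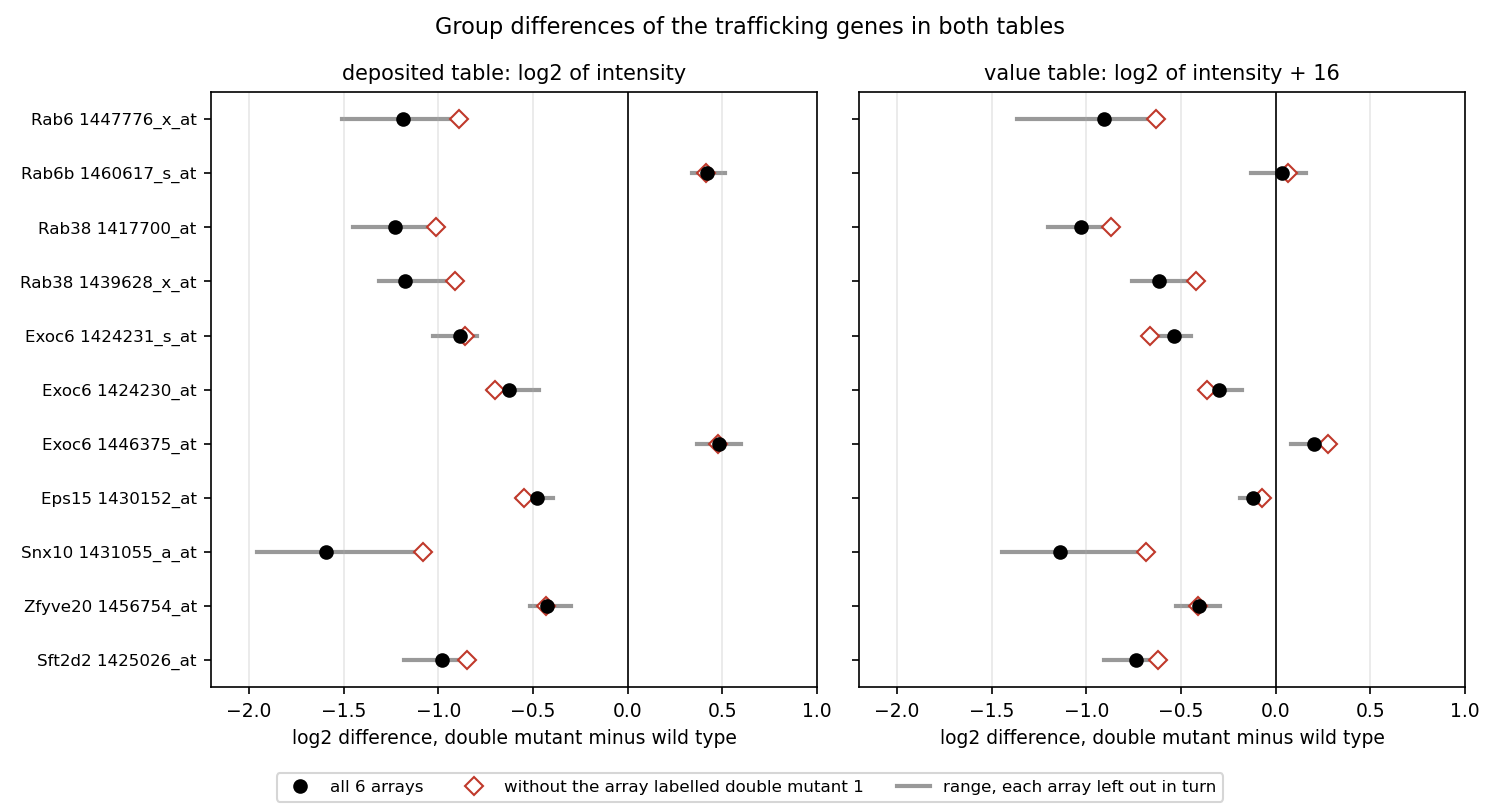
Log2 difference, double mutant minus wild type, of each member probe set in the submitters' table (left) and the value table (right); black points use all 6 arrays, open diamonds leave out the array labelled double mutant 1, and grey lines span the values with each array left out in turn. Snx10 moves most, to -1.08 and -0.69 without that array, while Zfyve20 stays near -0.4 in both tables.

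The other trafficking genes in the submitters' table were not lower as a group. Lists of 602 trafficking genes contained 29 that were listed, among them the 8 members; 15 were higher, 12 lower and 2 listed both ways. Without the members, 14 were higher, 6 lower and 1 both ways. Counted as probe sets, 17 were higher and 16 lower with the members, and 15 higher and 7 lower without them. The whole table held 645 higher and 416 lower probe sets. The median log2 difference was 0.37 over the 33 trafficking probe sets and 0.42 over the 22 without the members, against 0.38 over all 1061. The fold limit of the table leaves out small differences, so the sign of each median only shows which side held more probe sets. Nothing is read from how near these medians are to each other. The Rab and Arf list held 8 higher genes, 2 lower and 1 both ways of 189, the endosomal list 3 higher and 4 lower of 142, the SNARE list 2 higher and 4 lower of 94, the Golgi and ER list 1 higher and 2 lower of 59, the coat list 1 higher of 62 and the tether list Exoc6 alone of 57.

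Of the 8 higher genes of the Rab and Arf list, Rab6b is itself a GTPase and the other 7 encode regulators or partners of GTPases. Evi5, which encodes a GTPase-activating protein for Rabs, had 1884, 1501 and 1681 on double mutants 1, 2 and 4, against 1273, 1342 and 1109 on the unnumbered wild type, wild type 4 and wild type 5. Psd3, which encodes an exchange factor for Arf GTPases, had 390.3, 310.0 and 336.9 in double mutants, against 191.0, 267.9 and 248.0 in wild types. The Rab exchange factor gene Rab3il1 had a log2 difference of 0.41, the TBC-domain gene Tbc1d2 one of 0.61, the DENN-domain gene Dennd1c one of 0.51, and the Arf GTPase-activating genes Acap1 and Agap2 differences of 0.47 and 0.37. Micall2, which encodes a Rab effector that binds actin, was listed both ways, like Exoc6. Its probe set 1434322_at had a log2 difference of 0.44 and its probe set 1457614_at one of -1.30.

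Among endosomal genes that are no members, 3 were higher. Lrp1, which encodes a large endocytic receptor, had 951.0, 785.6 and 910.7 on double mutants 1, 2 and 4, against 574.1, 664.8 and 609.6 on the unnumbered wild type, wild type 4 and wild type 5. Dab2, which encodes a clathrin adaptor for such receptors, had a log2 difference of 0.44, as did Synj2, the gene of a phosphoinositide phosphatase. The endosomal members Snx10, Zfyve20 and Eps15 thus stood on the lower side, while Lrp1, Dab2 and Synj2 stood on the other.

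No member is a SNARE. Of the SNARE and fusion list the syntaxin gene Stx3 had 62.2, 75.0 and 81.5 on double mutants 1, 2 and 4, against 119.8, 89.9 and 101.2 on the unnumbered wild type, wild type 4 and wild type 5. The vesicle SNARE gene Vamp1 had a log2 difference of -0.56, the synaptotagmin gene Syt17 one of -0.87 and the synapsin gene Syn3 one of -0.60. The calcium sensor gene Doc2b was higher, with a log2 difference of 0.42. Of these 5 genes, all except Stx3 had means under 100 in both groups. On the Golgi and ER list, beside Sft2d2, Yipf1 had a log2 difference of -0.39 and the kinesin gene Kif1b one of 0.43, and the coat list held Mudeng, named Ap5m1 in RefSeq, at 0.42.

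**Figure D4:**
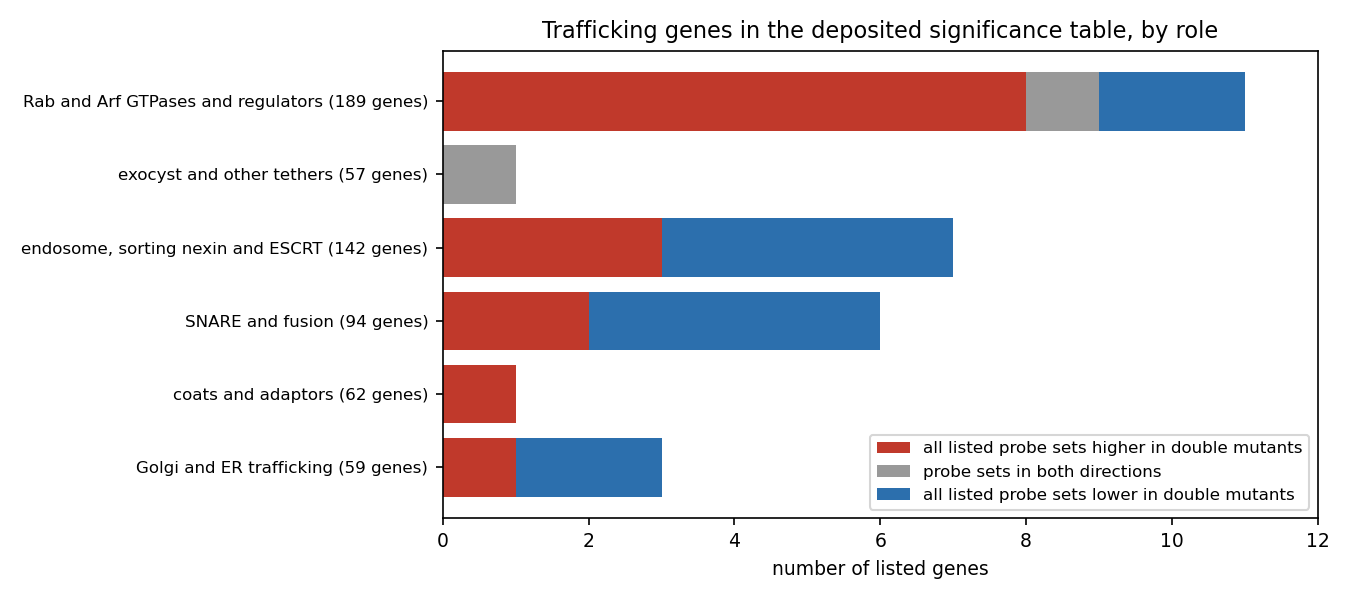
Number of genes of each trafficking list named in the submitters' table, split by direction in the double mutants, with the size of each list in brackets. The Rab and Arf list has 8 of its 11 listed genes higher, whereas the endosomal and SNARE lists each have 4 lower.

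Nearness of pattern was measured as the root mean square distance between log2 intensities centred on their mean over the 6 arrays, across all single-symbol probe sets of the submitters' table. The nearest gene to Snx10 was Nfkbiz, at a distance of 0.08, to Sft2d2 Slitrk4, at 0.06, to Rab6 Ube3a, at 0.09, and to Rab6b Magi2, at 0.07. For Rab38 it was Phyh for 1417700_at, at 0.15, and Odz2 for 1439628_x_at, at 0.13. For Exoc6 it was Tbx15 for 1424231_s_at, at 0.07, Slc5a1 for 1446375_at, at 0.03, and the member Zfyve20 for 1424230_at, at 0.14. Eps15 was nearest to Atp8a1, at 0.08, and Zfyve20 to Cnot10, at 0.08. In 10 of these 11 searches the nearest gene was no trafficking member. Members were only 8 of the 842 named genes and 11 of the 1061 probe sets, so nothing is read from this count.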

How the data were processed

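Laser-dissected maxillary mesenchyme, 6 samples, was hybridised to Affymetrix mouse arrays after RNA amplification, per the labels' protocols. The value table holds deposited linear intensities for 45101 probe sets. The submitters' processing notes name RMA and no other tool, and how these linear values were summarised is unknown here. The significance table holds p-values of an unpaired test without correction, an absolute fold and linear intensities that it calls raw, and per the file headers it keeps probe sets past a p limit of 0.05 with a fold limit of 1.25. Its columns were assigned by genotype and number, and 6 further per-array columns were not used. Its genome build is unnamed; 4 of the 11 member intervals overlap the same gene on GRCm38, so its coordinates were not mixed with RefSeq's. All 8 genes matched RefSeq by gene identifier. Precision is limited by 3 arrays per group, and p-values measure only the spread between these arrays.

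From the significance table, means, SDs and log2 differences were computed and no test was run. From the value table, log2(value + 16) was fitted with limma 3.58.1 in R 4.3.3 (lmFit, eBayes, group alone, Benjamini-Hochberg). The fit took probe sets with a mean over 100 in either group, without 64 control probe sets. It was tested on simulated data with equal spread on all arrays, unlike these arrays, so that test does not show its power here. Python 3.11.15, numpy 2.4.6, pandas 2.3.3 and matplotlib 3.10.9 did the rest. Members, gene lists, the rule for naming genes (all members, all list genes in the table, the nearest gene of each probe set; some list genes are counted but not reported here by name) and the tests were chosen with earlier results of these data known. Alternatives were quantile normalization, a common median, a pseudocount of 64, no intensity filter, array weights, the replicate number as a block and each array left out.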

Additional observations from a re-analysis of the deposited data

How the results depend on the processing

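The number of probe sets past an adjusted p of 0.05 by limma in the value table was 0 under quantile normalization, a common median, a pseudocount of 64 and no intensity filter, where 278, 261, 222 and 1646 had an unadjusted p under 0.05. It was 1619 with array quality weights, which gave the array labelled double mutant 1 a weight of 0.0375 and double mutant 2 one of 20. It was 2 with the replicate block, a fit with 1 residual degree of freedom. The titles share the numbers 1 and 4 between the groups, and the labels do not say whether same-numbered arrays were paired. The deviations of same-numbered arrays correlated at 0.07 and -0.08, and with so few arrays per group these values cannot settle whether a litter or batch was shared. Leaving out 1 array gave 0 to 9, the 9 without double mutant 1 and 2 without double mutant 4. The count of member probe sets separated between groups in the value table was 7 under quantile normalization, 5 with a common median and 7 to 8 with 1 array left out. Dropping an array cannot make separated groups overlap, so this last count could not fall below the 7 with all arrays. The shares over all probe sets were not computed under these settings, and nothing is read from the counts. Of the members' alternative values in the submitters' table, 77 of 77 kept their sign and moved by less than the spread between arrays. With an array left out, a sign could not change there, since the groups do not overlap in that table. Of the alternative values in the value table, 109 of 121 kept their sign and moved by less than that spread. Rab6b changed sign there in 3, with -0.0062 under quantile normalization, -0.15 with the replicate block and a range of -0.13 to 0.16 with 1 array left out, the lowest without double mutant 2. The other 9 kept their sign. With array weights Rab6 was -0.04, against -0.91, Snx10 -0.49, against -1.14, Sft2d2 -0.40, against -0.74, Rab6b 0.35, against 0.03, and 1446375_at of Exoc6 0.43, against 0.20. With a pseudocount of 64, which shrinks differences of dim probe sets by construction, Rab38 was -0.49 and -0.25, against -1.03 and -0.62, 1424231_s_at of Exoc6 -0.24, against -0.54, and Sft2d2 -0.42, against -0.74. The cause of the moves under array weights was not tested.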

Other observations

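In the annotation carried by the submitters' table, 13 listed genes were assigned to protein transport, of which 8 were lower, 4 higher and Exoc6 listed both ways. All 8 trafficking members are among the 13, and the 8 lower genes include the 6 members that were lower. The count therefore reflects the choice of members. The whole table held 416 lower and 645 higher probe sets. The broader term transport held 65 listed genes, 26 lower, 38 higher and 1 both ways, again with all 8 members among them. Vesicle-mediated transport held 7, 4 lower and 3 higher, of which 3 were members. These terms were looked up after the values were seen.

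Across the submitters' table, a total of 4 genes were listed with probe sets in both directions, Exoc6, Micall2, Atp8a1 and Pip4k2a. Of these, Exoc6 and Micall2 belong to the trafficking lists. Atp8a1 encodes a lipid flippase and Pip4k2a a phosphoinositide kinase.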
